A study of Mus musculus with 4 samples.

Results

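The genes described here are 10 markers of the epicardium and of mesothelium: Wt1, Tbx18, Aldh1a2, Msln, Upk3b, Upk1b, Lrrn4, Krt8, Krt18 and Krt19. They were found on the arrays through the RefSeq accession of each probe. Of the 22925 features tested, these are 10, each measured by 1 probe that was well above background on all 4 arrays. RNA came from infarcted hearts of male mice, taken 5 days after the left anterior descending coronary artery had been tied off. The WT group is wild-type mice with that operation. The KO group is VE-Cad-Cre-S1pr1 fl/fl mice with the same operation, in which Cre recombinase driven by the promoter of VE-cadherin, an adhesion protein of endothelial cells, is meant to delete the floxed S1pr1 gene, a receptor for sphingosine 1-phosphate. Age, strain and whether the WT mice carried Cre or floxed alleles are not given in the sources used here. Each genotype has 2 arrays, WT replicates 1 and 3 and KO replicates 3 and 4, and the labels do not say that each is a separate heart. The p-values therefore cover just the spread among these 4 samples, which may be technical.

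The epicardium is the mesothelial sheet on the outer surface of the heart, and related mesothelium lines the pericardial, pleural and peritoneal cavities and the outer face of fat within them. After infarction, epicardial cells take up a fetal programme again, in which Wt1, Tbx18 and the retinoic acid enzyme Aldh1a2 are made, and some leave the sheet as mesenchymal cells. Keratins, uroplakins and mesothelin mark the epithelial state of these cells. In RNA of a heart, fewer mesothelial cells and less RNA per mesothelial cell cannot be told apart.

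Every level below is a log2 signal from which the 75th percentile of that array was subtracted, and a difference is the KO mean less the WT mean on this log2 scale. Values are given in the order WT replicates 1 and 3, then KO replicates 3 and 4. The deleted gene, S1pr1, had levels of 0.43 and 0.95 in WT and of -2.69 and -2.30 in KO, so both samples labelled KO were low. The tissue label was checked with ventricular cardiomyocyte markers, 16 of 16 of which were well above background on all 4 arrays. Their mean was 2.20 and 6.23 in WT and 6.05 and 6.80 in KO. The check shows heart muscle RNA on each array, and not that the samples held like amounts of it. All arrays shared 1 slide and 1 scan, with the WT arrays at positions 4 and 3 and the KO arrays at 2 and 1, so position and genotype cannot be told apart. WT replicate 1 stood apart. It had 54.3% of probes well above background against 69.4% to 73.4% on the other arrays. Across features, where genes are not independent replicates, it correlated at 0.882 to 0.950 with them, while WT replicate 3 and KO replicate 3 correlated at 0.986. Differences of named genes that moved by over 1.5 times when WT replicate 1 was left out are given both ways.

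The comparison asked how the epicardial and mesothelial genes of the infarcted heart differ when endothelial S1pr1 is deleted. Tbx18, Krt18 and Aldh1a2 were lower on both KO arrays than on either WT array, by 1.32, 1.18 and 0.95 in the means, and they were 3 of 10 members without overlap between genotypes in that direction. Wt1 and Upk3b differed by 0.31 each in the other direction, with overlap, and the other 5 genes overlapped between genotypes as well. No member passed the test. At an adjusted p under 0.05, limma called 0 of 10 members and 0 of all features (0%), and at an unadjusted p under 0.05 it gave 1 member, Krt18, lower in KO, where 310 of all features (1.35%) were lower and 323 (1.41%) higher at that level. Both KO arrays lay under both WT arrays for 16.1% of all features and above them for 18.3%, a direction that 0 of 10 members showed. Among the 17221 features well above background on all 4 arrays, the KO arrays lay under both for 3295 and above both for 2576. Of the 10 members, 7 had a lower mean in KO, against 45.2% of all features and 51.7% of the 17221 features that, like the members, were well above background on all 4 arrays. In all, 2 members were at least 2-fold lower, against 7.51%. The median difference of the members was -0.51, that of all features 0.072 and that of the features well above background on all arrays -0.022. Without WT replicate 1 the members' median was 0.035 and 4 of 10 were lower. Without WT replicate 3 it was -1.01 and 10 of 10 were lower. With 2 arrays a genotype, an exact two-sided permutation test cannot give a p below 0.333.

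**Figure D1:**
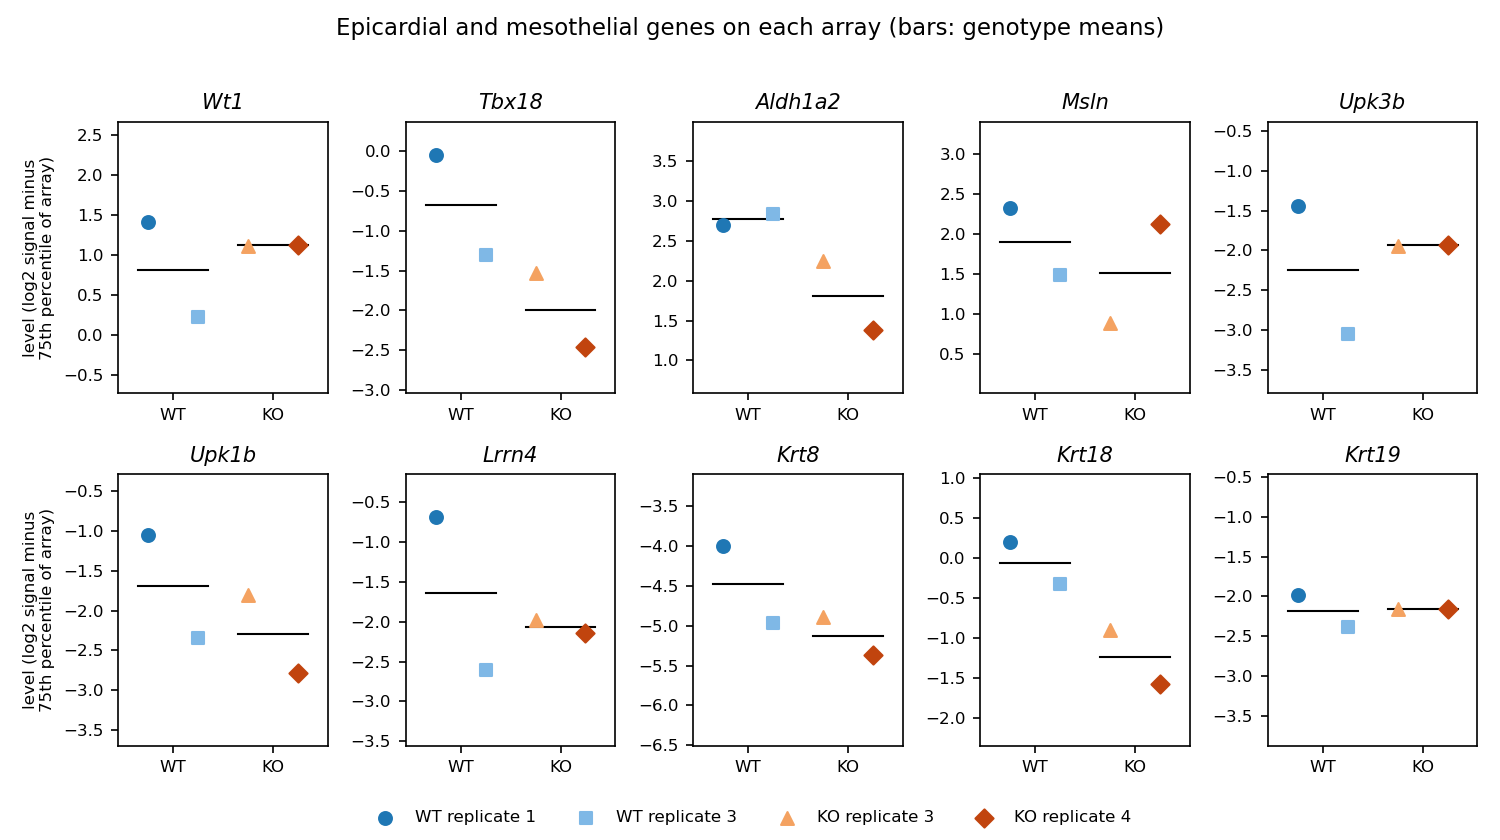
Each panel shows 1 gene, with the level on each array as a point on the vertical axis (log2 signal minus the array's 75th percentile; panels have the same span) and the mean of each genotype as a bar. Tbx18, Krt18 and Aldh1a2 show both KO points under both WT points, and WT replicate 1 is the highest point in 9 of 10 panels.

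The promoters of the 3 genes without overlap, and of Krt8, whose protein pairs with that of Krt18, are shown because these genes carry the largest differences between genotypes among the members. They are the 150 bases before the annotated start, from RefSeq in build GRCm38.p6, read 5′ to 3′ along the gene, and 6 of 10 members had an entry. Capitals mark a match on either strand to 1 of 6 motifs searched: TATAAA for the TATA-binding protein, CCAAT for the factor NF-Y, GGGCGG for Sp1, CATTCC for TEAD factors, TGANTCA for AP-1 and GCGTGGG for EGR factors and WT1.
Aldh1a2 (chr9:71215639-71215788, + strand): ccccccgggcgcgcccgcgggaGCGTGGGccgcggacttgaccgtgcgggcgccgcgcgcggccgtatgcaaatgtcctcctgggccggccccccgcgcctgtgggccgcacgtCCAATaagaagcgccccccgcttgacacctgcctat
Tbx18 (chr9:87731261-87731410, - strand): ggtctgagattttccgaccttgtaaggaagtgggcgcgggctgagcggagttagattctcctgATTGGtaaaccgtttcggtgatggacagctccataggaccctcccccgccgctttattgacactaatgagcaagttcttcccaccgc
Krt18 (chr15:102028066-102028215, + strand): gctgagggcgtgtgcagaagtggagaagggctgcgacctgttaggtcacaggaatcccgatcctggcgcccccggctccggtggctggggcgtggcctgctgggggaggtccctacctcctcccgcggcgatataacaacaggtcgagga
Krt8 (chr15:102004343-102004492, - strand): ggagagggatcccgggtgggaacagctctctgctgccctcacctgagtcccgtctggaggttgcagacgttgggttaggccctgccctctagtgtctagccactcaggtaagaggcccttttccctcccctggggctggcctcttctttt
The Aldh1a2 window held the NF-Y motif from 36 bases before the start and the EGR and WT1 motif from 128 bases before it, and the Tbx18 window held the NF-Y motif on the other strand from 87 bases before it. These matches do not overlap each other. The Krt18 and Krt8 windows, and those of Lrrn4 and Upk3b, held none of the 6 motifs. Of 32851 promoter windows of the same length, 24.5% held the NF-Y motif, 2.85% the EGR and WT1 motif, 7.57% the TATA motif, 28.6% the Sp1 motif, 7.59% the TEAD motif and 4.24% the AP-1 motif. The GC content of the printed windows was 76% for Aldh1a2, 54% for Tbx18, 66.7% for Krt18 and 61.3% for Krt8.

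Wt1 and Tbx18 are the transcription factors of the set, and they differed in opposite directions. Wt1, a zinc finger protein of the epicardium that is also made by some endothelial cells after infarction, had levels of 1.42 and 0.22 on WT replicates 1 and 3 and of 1.12 and 1.13 on KO replicates 3 and 4. The KO values lay between the WT values, with a difference of -0.012 between KO replicates 3 and 4 and of 1.20 between WT replicates 1 and 3. The difference was 0.31 (SE 0.51, 95% interval -1.05 to 1.66), with an adjusted p of 0.827 in limma. Leaving out WT replicate 3 gave -0.29, and leaving out WT replicate 1 gave 0.90. Tbx18, a T-box factor made by the epicardium and by pericytes and smooth muscle cells, had levels of -0.048 and -1.31 in WT and of -1.53 and -2.46 in KO. All KO values lay under the WT values, and the nearest 2 arrays, WT replicate 3 and KO replicate 3, were 0.22 apart. Its level was 2.50-fold higher in WT (95% interval 0.802-fold to 7.77-fold), a difference of -1.32 (SE 0.61) with an adjusted p of 0.740 in limma. Without WT replicate 1 the Tbx18 difference was -0.69 and without KO replicate 4 it was -0.85.

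Pericyte and smooth muscle markers, which share cells with Tbx18, were split on the same arrays. Of 13 measured markers 5 were lower and 8 higher in KO, none passed the adjusted test, with a WT mean of 0.99 on replicate 1 and 1.59 on replicate 3 and a KO mean of 1.81 on replicate 3 and 1.49 on replicate 4. Kcnj8, a potassium channel subunit of pericytes, differed by 2.07 (SE 0.80), the secreted adhesion protein Vtn by 1.94 (SE 0.88) and the contractile protein Cnn1 by -2.41 (SE 1.14). When WT replicate 1 was left out, these differences were 0.98 for Kcnj8, 0.71 for Vtn and -0.94 for Cnn1. The part of these cells in the Tbx18 values was not tested.

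Aldh1a2, which turns retinaldehyde into retinoic acid, was the only member whose highest array was not WT replicate 1. It had levels of 2.70 and 2.83 in WT, and of 2.24 and 1.39 in KO. The WT arrays were within 0.14 of each other and both lay above both KO arrays. The level was 1.93-fold higher in WT (95% interval 0.883-fold to 4.24-fold), a difference of -0.95 (SE 0.42) with an adjusted p of 0.740 in limma. It stayed negative with each array left out, from -1.38 without KO replicate 3 to -0.52 without KO replicate 4.

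The other genes of retinoic acid handling showed no common direction. Of 20 listed genes all had a probe and 17 were measured, and of these 9 were lower and 8 higher in KO with a median of -0.041, against 0.072 for all features, and 0 passed the adjusted test in limma (0 also at an unadjusted p under 0.05). Dhrs9, a dehydrogenase that acts on retinol, differed by -1.90 (SE 0.74) and was well above background on just 1 array of each genotype. Aldh1a1, another retinaldehyde dehydrogenase, was 0.56 and 1.34 in WT and 1.84 and 1.67 in KO, a difference of 0.81 (SE 0.41) with no overlap. The retinoic acid receptor Rarb, itself induced by retinoic acid, was 0.10 and 0.69 in WT and 0.81 and 1.72 in KO, a difference of 0.87 (SE 0.48). Leaving out WT replicate 1 gave 0.41 for Aldh1a1 and 0.58 for Rarb.

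The mesothelial surface proteins overlapped between genotypes. Msln, a lipid-anchored glycoprotein of mesothelium, had levels of 2.33 and 1.49 in WT and of 0.89 and 2.13 in KO, so KO replicate 3 was lowest and KO replicate 4 second highest. It differed by -0.40 (SE 0.59), by 0.020 without WT replicate 1 and by 0.22 without KO replicate 3. Upk3b, a uroplakin made by mesothelium as well as urothelium, was -1.44 and -3.04 in WT and -1.94 and -1.93 in KO. Both KO values lay between the WT values. The Upk3b difference was 0.31 (SE 0.62) with all arrays, 1.11 without WT replicate 1 and -0.49 without WT replicate 3.

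Upk1b, a tetraspanin of the uroplakin family, was -1.05 and -2.34 in WT and -1.81 and -2.78 in KO. The order of arrays alternated between genotypes, with WT replicate 1 highest and KO replicate 4 lowest. Upk1b was spotted 10 times on each array, and the SD over its spots was 0.040 to 0.066 on the log2 scale, after 2 of 40 spots were left out as outliers. The distance between the WT arrays, 1.29, was far above that spot-to-spot spread, which covers neither labelling nor the samples. Its difference between genotypes was -0.60 (SE 0.63), and 0.050 without WT replicate 1.

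Lrrn4, a membrane protein with leucine-rich repeats used as a marker of mesothelium, was -0.69 and -2.60 in WT and -1.98 and -2.15 in KO. The WT arrays bracketed the KO arrays and were 1.91 apart, the widest distance between WT arrays in the set. The difference was -0.42 (SE 0.72, 95% interval -2.34 to 1.50), and it was 0.54 when WT replicate 1 was left out and -1.37 when WT replicate 3 was. Of the 4 other uroplakin genes listed, Upk2 and Upk3a were not well above background on 2 arrays and were not tested. Upk1a differed by -0.088 (SE 0.36) and Upk3bl by -1.36 (95% interval -4.06 to 1.33), the latter well above background on just 1 array of each genotype. With WT replicate 1 left out, Upk1a differed by -0.29 and Upk3bl by -2.61.

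Krt8, Krt18 and Krt19 encode keratins of simple epithelia, which polymerise only as pairs of a type II keratin, here Krt8, with a type I keratin such as Krt18 or Krt19. Krt18 was 0.20 and -0.32 in WT and -0.90 and -1.58 in KO, with no overlap and all arrays in a row from WT replicate 1 down to KO replicate 4. Its level was 2.26-fold higher in WT (95% interval 1.04-fold to 4.94-fold), a difference of -1.18 (SE 0.42) with an unadjusted p of 0.0437 and an adjusted p of 0.740 in limma. With each array left out the difference of Krt18 ran from -1.52 to -0.84. Krt8, at -4.00 and -4.97 in WT and -4.89 and -5.37 in KO, overlapped between genotypes through WT replicate 3 and KO replicate 3, which were 0.077 apart. Krt8 differed by -0.65 (SE 0.47), by -0.16 without WT replicate 1, and by 0.048 with normexp background correction of median signals. Its probe was the dimmest of the set, on WT replicate 1 just 0.39 above the limit there, the dimmest level of any probe called well above background. Krt19 was -1.98 and -2.38 in WT and -2.16 and -2.16 in KO, with both KO arrays inside the WT range. Its difference was 0.019 (SE 0.33) and its sign turned with quantile scaling (-0.035), median scaling (-0.091), the deposited values (-0.036) and without WT replicate 3 (-0.18), while it was 0.22 without WT replicate 1. Whether the 3 keratins differ from each other in this was not tested.

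**Figure D2:**
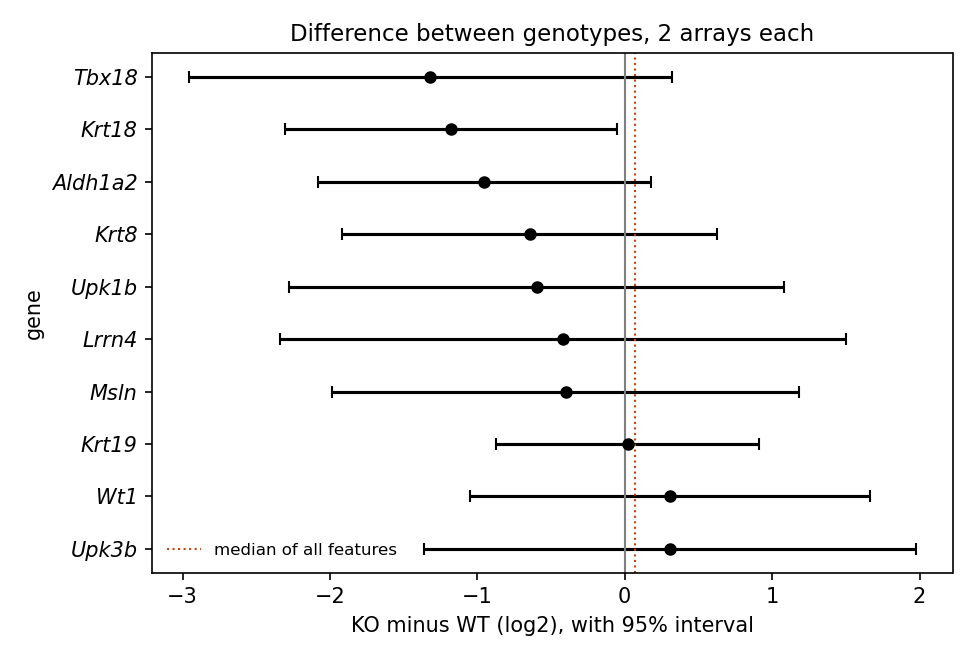
Points are KO minus WT differences on the log2 scale from limma, lines are 95% intervals with 2 arrays a genotype, and the dotted line is the median of all features (0.072). The interval of Krt18 (-2.30 to -0.052) is the only one of the 10 that leaves out 0, and no gene passes after adjustment.

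Over the set, WT replicate 1 was the highest array for 9 of 10 members, against 39% of all features and 46.6% of those well above background on all arrays. KO replicate 4 lay under WT replicate 1 for 10 of 10, against 44.8% of all features. The median of KO replicate 4 less WT replicate 1 was -1.34 for the members and 0.16 for all features. For the features that, like the members, were well above background on all arrays, it was -0.053. The lowest array was KO replicate 4 for 5 members (Tbx18, Aldh1a2, Upk1b, Krt8 and Krt18), WT replicate 3 for 4 (Wt1, Upk3b, Lrrn4 and Krt19) and KO replicate 3 for Msln. KO replicate 4 was lowest for 27.6% and WT replicate 3 for 14.7% of all features. Of the 17221 features well above background on all arrays, KO replicate 4 was lowest for 5643 and WT replicate 3 for 2486. Tbx18, Upk1b, Krt8 and Krt18, 4 of 10 members, had both WT replicate 1 highest and KO replicate 4 lowest, against 23.5% of all features. The members' mean level was -0.26 on WT replicate 1, against -1.24 on the other WT array and -1.10 and -1.38 in KO. For 7 of 10 members the WT arrays were farther apart than the means of the genotypes, as for 68% of all features. Between the arrays numbered 3, KO was lower for 4 members and higher for 6, with a median of 0.15, and 54.5% of all features were lower. Krt18, Aldh1a2, Msln and Tbx18 were the 4 lower ones, by 0.58, 0.59, 0.60 and 0.22.

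**Figure D3:**
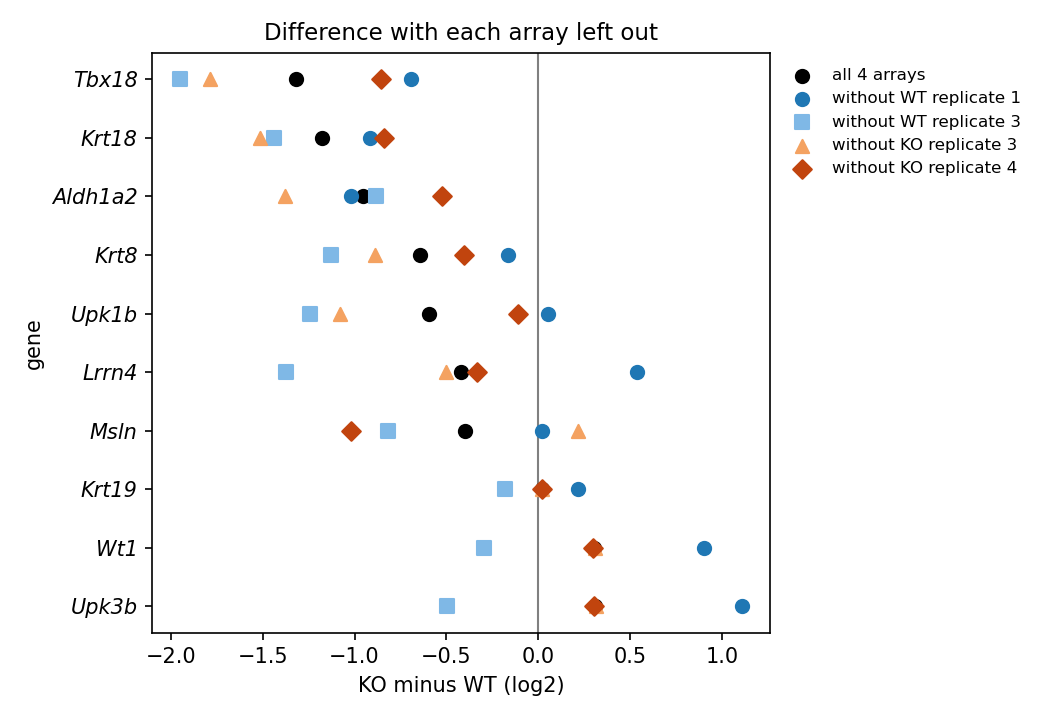
Points show KO minus WT (log2) for each gene with all 4 arrays (black) and with each array left out (coloured). Tbx18, Krt18, Aldh1a2 and Krt8 stay under 0 in each case, while Wt1, Upk3b and Krt19 turn negative without WT replicate 3. Lrrn4, Msln and Upk1b turn positive without WT replicate 1, and Msln also without KO replicate 3.

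Other genes of epicardium and mesothelium, from a list of 24 that does not hold the members, were measured for 20. Of these 8 were lower and 12 higher in KO with a median of 0.057, where 45.2% of all features were lower. None passed the adjusted test in limma, and 0 had an unadjusted p under 0.05. Without overlap between genotypes, 0 of 20 were lower, against 16.1% of all features, and 2 were higher, against 18.3%. For 9 of 20 the highest array was WT replicate 1, against 39% of all features and 46.6% of those well above background on all arrays. For 7 of 20 it was the lowest, against 9562 of all 22925 features and 6209 of the 17221 well above background on all arrays. Among the 7 genes, Krt7 and Prr15l were not well above background on WT replicate 1. Prr15l is also 1 of the 2 genes higher without overlap. Cdh1, the epithelial cadherin, was -2.14 and -4.59 in WT and -4.59 and -5.57 in KO, a difference of -1.71 (SE 0.94). Podoplanin, Pdpn, also made by lymphatic vessels and activated fibroblasts, was 3.77 and 2.04 in WT and 2.21 and 0.66 in KO, a difference of -1.47 (SE 0.85). Both were highest on WT replicate 1 and lowest on KO replicate 4, and both overlapped through the arrays numbered 3. Their differences were -0.49 for Cdh1 and -0.60 for Pdpn when WT replicate 1 was left out. Ezrin, Ezr, which ties membrane to actin, differed by 0.55 (SE 0.32) with both KO arrays above both WT arrays.

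Genes of epicardial mesenchymal transition and of signals to and from the epicardium were lower in KO for 14 of 25 measured members, with a median of -0.34. Of all features 45.2% were lower. Of the 17221 features well above background on all arrays, as 24 of the 25 were, 51.7% were lower. None passed the adjusted test in limma, and 1, Ccn2, had an unadjusted p under 0.05, 0.0448, where 1.35% of all features were lower at that level. In the lower direction 6 of 25 did not overlap, against 16.1% of all features, and in the higher direction 1, Zeb1, against 18.3%. Among the 17221 features well above background on all arrays, 3295 did not overlap in the lower direction and 2576 in the higher. Ccn2, a matricellular protein induced by TGF-beta and YAP, was 5.97 and 5.31 in WT and 4.74 and 3.91 in KO, a difference of -1.31 (SE 0.47). Its relative Ccn1 was 2.89 and 1.30 in WT and 0.92 and -0.53 in KO, a difference of -1.90 (SE 0.79). Zeb1, a repressor of epithelial genes, was 0.50 and 1.01 in WT and 1.38 and 1.54 in KO, a difference of 0.71 (SE 0.35). Without WT replicate 1 the difference was -1.10 for Ccn1 and 0.46 for Zeb1.

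Markers of other cell types moved over the same arrays, and their part in the members' values was not tested. Adipocyte markers were highest on WT replicate 1 for 5 of 5 measured of 7, with Lep and Ucp1 not well above background on 2 arrays. Their mean was -0.063 and -5.25 in WT and -3.25 and -5.22 in KO. Adipoq, the adipocyte hormone adiponectin, was 1.07 and -4.89 in WT and -2.39 and -5.08 in KO, so the WT arrays were further apart than the genotypes. Cidec, a lipid droplet protein, was 0.84 and -5.87 in WT and -3.08 and -5.96 in KO, and resistin, Retn, differed by -0.99 (SE 0.88) with overlap. Leaving out WT replicate 1 turned the sign of each, to 1.16 for Adipoq, 1.35 for Cidec and 0.19 for Retn.

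Ventricular cardiomyocyte markers went the other way on WT replicate 1. All 16 were lowest there, with means of 2.20 and 6.23 in WT and 6.05 and 6.80 in KO. The members and the cardiomyocyte list therefore had opposite extremes on the same array. Pan-macrophage markers were highest on WT replicate 1 for 16 of 16 and lowest on KO replicate 4 for 13 of 16, with means of 3.31 and 2.40 in WT and 2.32 and 1.09 in KO. The array order of Tbx18 and Krt18 ran from WT replicate 1 through WT replicate 3 and KO replicate 3 to KO replicate 4. It held for 6 of these 16 markers and for 2431 of all 22925 features. Endothelial markers (14 of 14 higher in KO, means 1.19 and 1.53 in WT and 1.68 and 1.80 in KO) and fibroblast markers (6 of 13 lower, means 3.47 and 3.75 in WT and 4.02 and 3.11 in KO) did not have their highest mean on WT replicate 1.

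**Figure D4:**
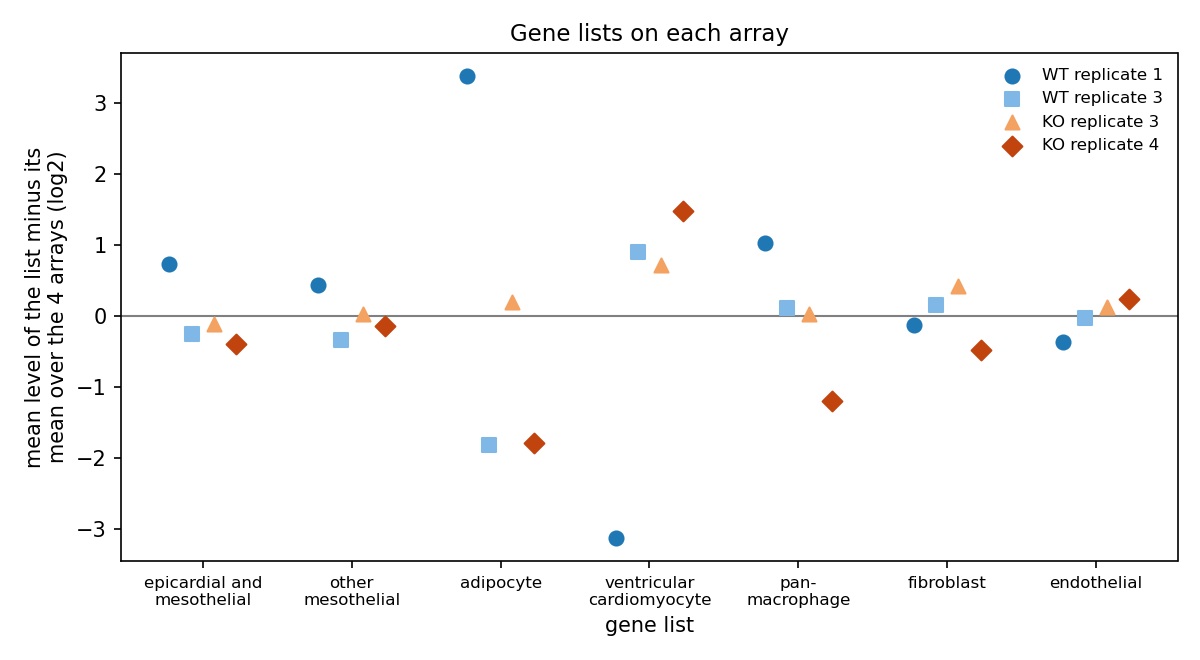
Each point is the mean level of a gene list on 1 array, less the mean of that list over the 4 arrays (log2). The means of the epicardial and mesothelial genes, the other mesothelial genes, the adipocyte markers and the pan-macrophage markers are highest on WT replicate 1. The mean of the ventricular cardiomyocyte markers is lowest there. Of the 20 other mesothelial genes, 9 are highest and 7 lowest on WT replicate 1. Among the 7, Krt7 and Prr15l are not well above background there.

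Keratins are also made by lung and skin epithelium, so markers of these were read. Of 12 lung and airway markers 9 were measured, with list means of -3.77 and -3.34 in WT and -3.61 and -2.74 in KO, and Epcam, Cldn18 and Nkx2-1 were not well above background on 2 arrays. Napsa, an aspartic protease of the alveolar epithelium and the marker of smallest unadjusted p, was -0.74 and -1.95 in WT and -1.91 and -4.69 in KO, the array order of Krt8. The rest of this lung and airway list did not share a direction. Of its 9 measured markers, 6 had a higher mean in KO and 3 a lower one, where 12572 of all 22925 features were higher. For 6 of the 9 the lowest array was WT replicate 1, where Krt8 was highest. WT replicate 1 was also the lowest array for 9562 of all 22925 features. Among the 6 markers, Foxj1, Sftpc, Sftpa1 and Sftpb were not well above background on WT replicate 1, so their rank there is not a measured one. Foxj1 was well above background on neither WT array. Scgb1a1 and Sftpd were well above background on all 4 arrays. The part of lung and airway cells in the keratin values was not tested. Of 13 markers of stratified epithelium 8 were measured, with means of -1.91 and -1.51 in WT and -1.65 and -2.17 in KO. Of these, 3 had a lower and 5 a higher mean in KO, with a median difference of 0.34, where 45.2% of all features were lower. Krt6a was -4.38 on WT replicate 3 and -3.63 and -2.33 in KO, and its probe was not well above background on WT replicate 1. Sprr1a was 2.77 and 1.82 in WT and 0.55 on KO replicate 3, and its probe was not well above background on KO replicate 4. Its value there, -6.47, is the lowest of the list on that array and is part of the list mean. Thymus markers (4 of 8 measured, 2 lower and 2 higher) and atrial cardiomyocyte markers (6 of 8 measured, 3 lower and 3 higher) were split.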

How the data were processed

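Cy3-labelled total RNA of 4 heart samples was read on 1-colour Agilent arrays, per the labels' protocols. The deposited intensity is the processed signal, which Feature Extraction 11.0.1.1 had corrected for background and spatial trend, per the file headers (the submitters' processing notes give version 9.1). Spot flags are other values, used as deposited. The authors' deposited value table holds log2 values with a median of 6.106 in all 4 columns, and the step that made them alike is not stated.

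Left out were control spots and outlier spots. Spots of the same probe were averaged, and each array's 75th percentile was subtracted from its log2 signals. A probe had to be well above background on 2 or more arrays, and the probe of highest mean stood for a gene. RefSeq accessions named 27234 of 39429 probes (GRCm38.p6, used for names and promoters; the array grid is of mm9). KO was compared with WT by limma 3.58.1 in R 4.3.3 (lmFit, eBayes), two-sided, with Benjamini-Hochberg adjustment over 22925 features. Tested on simulated data with the spread of these arrays, the fit called none of the genes made to differ, so a count of 0 does not show that no gene differs. The number of arrays limits the precision. Members and lists were chosen with earlier results of these data known. All 10 members are named, and up to 3 genes of smallest unadjusted p in another list. Alternatives were other scalings, filters, probe rules, background corrections, the deposited values, eBayes options, an adjusted p under 0.10 and each array left out.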

Additional observations from a re-analysis of the deposited data

How the results depend on the processing

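With limma, 0 features had an adjusted p under 0.05 in any alternative run, and 0 had one under 0.10 with all arrays. The alternatives were scaling by quantiles or the median, keeping all probes or those well above background on 4 arrays, the deposited values, averaging a gene's probes, eBayes with both trend and robust, a common floor and leaving out each array. Normexp (offset 50) was run on median signals, chosen after seeing the data, and not on mean signals, which the scanner tables used here do not hold. Unadjusted, 68 to 2853 features were higher and 99 to 1398 lower at p under 0.05, the most without WT replicate 3 and the fewest without KO replicate 4. The members' median difference of -0.51 was -1.01 to 0.035 with an array left out, 0.15 for the arrays numbered 3 alone and -0.62 to -0.32 otherwise. Median scaling moved the median of all features by -0.11.

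Tbx18, Krt18 and Aldh1a2 kept their sign in all 13 alternatives. The sign turned for Krt19 with quantile scaling (-0.035), median scaling (-0.091) and the deposited values (-0.036), and for Krt8 with normexp (0.048). With an array left out it turned for Lrrn4 (-1.37 to 0.54), Msln (-1.02 to 0.22), Upk1b (-1.24 to 0.050), Upk3b (-0.49 to 1.11), Wt1 (-0.29 to 0.90) and Krt19 (-0.18 to 0.22). The cause was not tested. A genotype left with a lone array is assumed to vary like the other. No paired analysis was possible because the genotypes share only the number 3. Signal over background limits Krt8 most.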

Other observations

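The 5 genes whose centred profile over the 4 arrays lay nearest to the members' mean profile were Cbfb, Cdk17, Ccdc93, Cnpy3 and Zfp791, with Euclidean distances of 0.028 to 0.040 on the log2 scale among 12461 named genes well above background on all arrays. Cbfb, a partner of RUNX factors, was 3.64 and 2.65 in WT and 2.83 and 2.52 in KO. These have the shape of the members' mean profile, with WT replicate 1 high and the other arrays close together, a shape that not every member has. Of the members, Krt8 lay nearest to the mean profile at 0.21, and 337 of those genes were nearer than it. Msln lay farthest, at 1.08, with 6846 nearer. With 4 arrays many genes share a shape, so these names are a description only.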
